A study of Mus musculus with 4 samples.

Results

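Endothelial cells line the blood and lymphatic vessels, and here they were studied in the whole nose of the mouse embryo, at embryonic day 14.5. A cell was chosen by its detected genes: at least 3 of the 8 endothelial genes Pecam1, Cdh5, Kdr, Cldn5, Emcn, Esam, Egfl7 and Tie1 had a unique molecular identifier (UMI, a tag that marks 1 captured transcript), and the 3 complement genes C1qa, C1qb and C1qc, which mark macrophages, had fewer than 3 UMIs together. The rule found 275 endothelial cells among 13739 cells that passed quality filters, or 2.00% of them. The complement limit removed 0 cells. Of the 275 cells, 128 had all 8 genes and 28 had exactly 3, the minimum. The 28 cells just inside the rule had a median of 2472 UMIs per cell, and the 179 cells with 2 of the genes, just outside it, had a median of 8962.

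The 2 control libraries are titled WT. Their sample labels give the strain C57Bl/6J, whereas the series design describes animals with floxed Yap and Taz and no Cre, and the sources used here do not settle which is right. The 2 mutant libraries are titled as Sox10Cre/Yap/Taz cKO, with the genotype label Tg(Sox10-cre)1Wdr/Yapflox/Tazflox on C57Bl/6J. According to the design, the mutants kept 1 wild-type Yap allele beside 1 floxed one, and both Taz alleles were floxed. Sox10 drives the Cre recombinase in the neural crest and its descendants, whereas endothelial cells are generally held to arise from mesoderm. Noses were pooled, dissociated with enzymes and frozen before loading, per the labels. No source says which library came from which sequencing provider, so provider and group cannot be told apart, and the p-values measure only the spread between these libraries.

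Vessels differ by organ and by branch. Arteries, veins and capillaries carry different receptors and transcription factors, lymphatic vessels are specified by Prox1, and capillaries of peripheral tissue often have openings spanned by the protein Plvap. Vessels of the brain are sealed: Wnt signals from neural tissue act through Fzd4, Adgra2 and Reck and switch on tight junctions and nutrient transporters.

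The libraries contributed unequal numbers of endothelial cells. Control 1 had 70 among 4075 cells (1.72%, exact 95% binomial interval 1.34 to 2.16), and control 2 had 32 among 2474 (1.29%, 0.886 to 1.82). Mutant 1 had 40 among 2995 (1.34%, 0.956 to 1.81), and mutant 2 had 133 among 4195 (3.17%, 2.66 to 3.75). Mutant 1 lay between the 2 controls, and mutant 2 was above all 3 other libraries. The mean share was 0.75 percentage points higher in mutants (two-sided exact permutation test, p = 0.67), and 2 libraries against 2 cannot go below 0.33. Without mutant 2 the difference was -0.17 points. These intervals, like all others here, cover counting error only.

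Depth differed with it. Endothelial cells had a median of 13554.5 and 12720.5 UMIs in controls 1 and 2, and of 18033.5 and 5084 in mutants 1 and 2. Mutant 2 held 22 cells under 2000 UMIs, against 1, 1 and 2 in the other libraries in the same order. Of the 78 cells with only 3 to 5 of the 8 genes, 60 were from mutant 2, at a median of 2367.5 UMIs, whereas its 73 cells with 6 or more genes had a median of 8619. With 6 genes as the minimum, a choice made after the values were seen, the shares were 1.50%, 1.05%, 1.24% and 1.74%, a difference of 0.21 points.

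**Figure D1:**
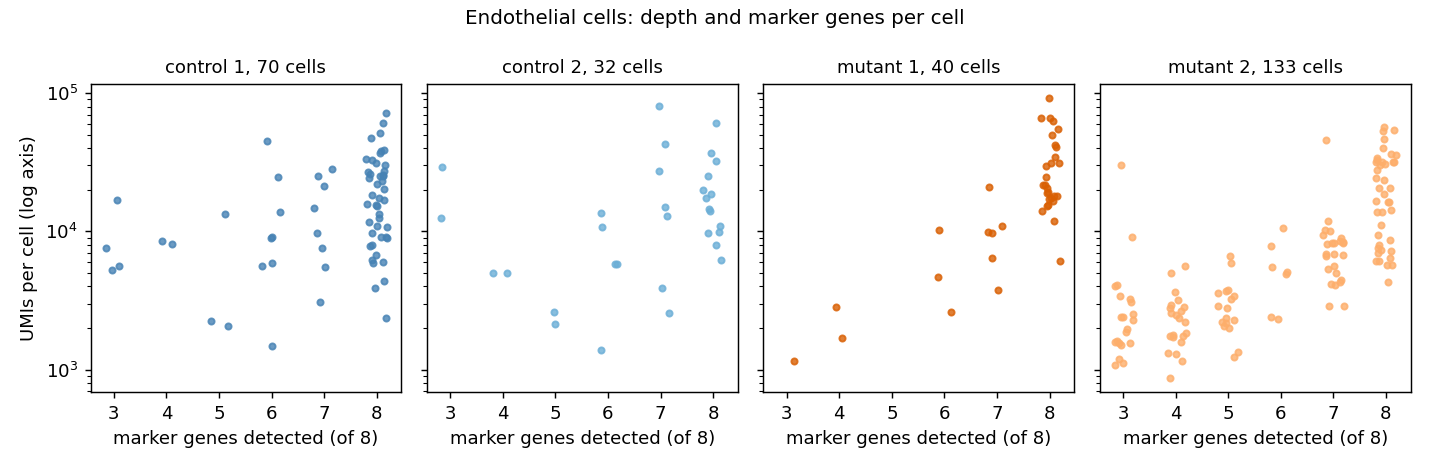
UMIs per endothelial cell (vertical log axis) against how many of the 8 endothelial genes were detected in it, 1 panel per library and 1 point per cell, shifted sideways at random for legibility. The 60 cells of mutant 2 with 3 to 5 genes form a shallow group, at a median of 2367.5 UMIs. Control 1, control 2 and mutant 1 have 9, 6 and 3 cells with 3 to 5 genes, at medians of 7623, 4998.5 and 1689 UMIs.

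The shallow cells of mutant 2 also carried RNA of other cell types. Col1a1, a fibrillar collagen chain of mesenchyme, was at 3940 CPM (UMIs per 1000000 UMIs summed over those cells) in the cells with 3 to 5 genes and at 636 in those with 6 or more. Col2a1, the cartilage collagen, was at 1032 and 80.5 CPM, and Epcam, an epithelial adhesion protein, at 128 and 3.46. Cdh5, the cadherin of endothelial junctions, was at 225 CPM in the shallower cells and 759 in the others. It is 1 of the 8 genes that define the 2 classes, so a lower level follows from the choice. Outside the 8, Flt1, Plvap, Plxnd1 and Gja4 were at 289, 192, 102 and 16.0 CPM in the shallower cells against 557, 374, 486 and 177. Tek, Clec14a and Fabp4 were at 155, 171 and 176 CPM against 174, 158 and 128. Col1a1, Col2a1 and Epcam stood at 1719, 179 and 132 CPM in the non-endothelial cells of mutant 2. The few control cells with 3 to 5 genes were also higher in Col1a1, at 388 and 426 CPM against 98.7 and 96.6 with 6 or more. In mutant 1 the levels were 0 against 158, but only 3 cells had 3 to 5 genes, at a median of 1689 UMIs. These hold too few UMIs to give a direction. At least 3 of 10 mesenchyme markers were detected in 14, 5, 7 and 69 endothelial cells of control 1, control 2, mutant 1 and mutant 2. The share reached 51.9% in mutant 2, where other cells of the nose stood at 84.5%. The part of these cells in the share was not tested beyond the stricter minimum given above.

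The genes used by the rule were high by construction and are described without a test. Cdh5 was at 802 and 788 CPM in controls against 945 and 684 in mutants, over all endothelial cells of each library. Egfl7, a secreted vascular protein, ranged from 740 to 792 CPM and Emcn, a surface sialomucin of capillaries and veins, from 536 to 659. Cldn5, the claudin of endothelial tight junctions, was at 774 and 765 CPM in controls against 554 and 515 in mutants. Tie1, an angiopoietin co-receptor, was lowest of the 8 on the same scale, at 155 to 179 CPM. Summed over the 8 genes, endothelial cells held 3978 to 4385 CPM per library and all other cells 22.6 to 28.6.

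Genes that the rule did not name also set these cells apart, although they come from the same cells and are given as description. They were ranked by the log2 ratio to other cells of the nose with 10 CPM added to both, which favours abundant genes. The first was Ctla2a, a protease inhibitor-like gene, with a mean over libraries of 457 CPM against 1.36. Flt1, a VEGF receptor, was at 475 against 5.04, Cd93 at 289 against 0.530 and Icam2, an adhesion molecule, at 263 against 0.556. Plvap was at 282 CPM and was detected in 77.0% of endothelial cells on average, against 0.960% of other cells. Further genes in this group were Ecscr, Adgrf5, Prnd, Plxnd1, Cav1 and Gimap6. Fabp4, a fatty acid carrier of capillaries, was uneven, at 357 and 81.7 CPM in controls against 353 and 135 in mutants. Ccl21a, the lymphatic chemokine, averaged 435 CPM against 1.56 but was detected in only 6.78% of endothelial cells.

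Markers of other cell types were also summed in the endothelial cells. The 10 mesenchyme markers summed to 502 and 733 CPM in controls against 847 and 2183 in mutants, against 5973 to 7303 in other cells, and none was at 0. The 8 erythroid genes, mostly haemoglobins, summed to 3875 and 12.4 CPM in controls against 13682 and 1772 in mutants, so the groups overlapped. Embryonic Hbb-y had 688 UMIs in mutant 1, of which 1 cell held 392, and 1 UMI in each of the other libraries. The 11 mural markers, of pericytes and smooth muscle, summed to 346, 154, 41.5 and 134 CPM in the order control 1, control 2, mutant 1 and mutant 2, against 283, 371, 277 and 281 in other cells, so that control 1 was above its other cells. The 7 neuron markers summed to 155, 218, 119 and 148 CPM against 249, 262, 287 and 247, and most of their endothelial UMIs were of Gap43, a growth-associated protein. The 10 macrophage markers summed to 71.9, 56.8, 45.6 and 41.0 CPM against 286 to 543 in other cells, with the receptor Csf1r at 0 in every library.

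The comparison of mutant with control endothelial cells asked which vascular genes differ when Yap and Taz are targeted in neural crest derivatives. UMIs were summed per library over its endothelial cells and fitted with edgeR. Of 9195 genes tested, 5 passed an adjusted p of 0.05, or 0.0544%, with 4 lower and 1 higher in mutants, and 591 had an unadjusted p under 0.05. All 4 lower genes belong to a list of 18 genes of brain-type vessel barrier: the transporters Slc38a5 and Slc7a5, the matrix proteoglycan Spock2 and the forkhead factor Foxq1. The gene that rose was Epha3, an ephrin receptor. Without regard to the test, 19.4% of all genes were lower in both mutant libraries than in both controls and 17.1% were higher in both.

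Slc38a5 (ENSMUSG00000031170, chromosome X, 8271133 to 8280179, plus strand, GRCm38) encodes a glutamine transporter of brain endothelium. It had 63 UMIs in 6 cells of control 1, 50 UMIs in 3 cells of control 2, none in mutant 1 and 1 UMI in 1 cell of mutant 2. Nearly all of its signal therefore came from 9 control cells, and both mutant libraries were far below both controls. The control to mutant ratio of the CPM was 143 (exact 95% counting interval 25.1 to 5680), and the fitted log2 change was -6.90 ± 0.66 (SE, n = 2 against 2, adjusted p = 0.00431).

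Foxq1 (ENSMUSG00000038415, chromosome 13, 31556134 to 31560976, plus strand) had 48 UMIs in 5 cells and 35 UMIs in 3 cells of the controls, against 0 and 2 UMIs in the mutants. The ratio was 52.4 (14.0 to 439) and the log2 change -5.60 ± 0.64 (n = 2 against 2, adjusted p = 0.00927). Spock2 (ENSMUSG00000058297, chromosome 10, 60106219 to 60135198, plus strand) had 62 UMIs in 6 cells and 29 UMIs in 3 cells of the controls. The mutants had 4 UMIs in 4 cells and 2 UMIs in 2 cells. Spock2 fell by 4.18 ± 0.46 on the log2 scale (n = 2 against 2, adjusted p = 0.00817), and its mutant values never exceeded 1 UMI per cell.

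Slc7a5 (ENSMUSG00000040010, chromosome 8, 121881150 to 121907694, minus strand) encodes the light chain of a transporter that brings leucine and related amino acids into the brain. It was more widely detected, with 140 UMIs in 24 cells of control 1, 79 in 10 cells of control 2, 20 in 13 cells of mutant 1 and 29 in 17 cells of mutant 2. The levels were 111 and 140 CPM in controls against 20.7 and 21.6 in mutants, a log2 change of -2.52 ± 0.25 (n = 2 against 2, adjusted p = 0.00431). The 5 highest cells held 75.0% and 93.7% of its UMIs in controls against 60.0% and 58.6% in mutants.

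**Figure D2:**
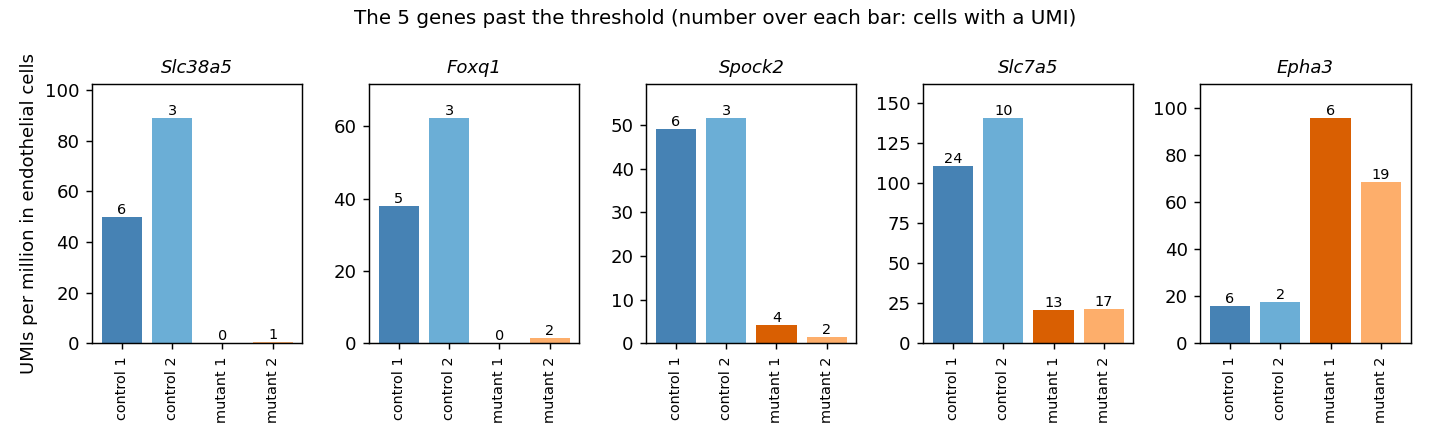
Level of the 5 genes that passed the threshold, in UMIs per 1000000 UMIs of the endothelial cells of each library (1 bar per library, axis from 0, 1 sum per library and so no error bar), with the number of cells holding a UMI above each bar. The 4 genes of the brain-type barrier are high in both controls, and Slc38a5, Foxq1 and Spock2 have 6 or fewer such cells in every library.

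Of the 4 lower genes, Foxq1 and Slc7a5 had no entry in the RefSeq promoter table (build GRCm38.p6). The sequence before Spock2 is shown because its entry, unlike that of Slc38a5, had a stretch of at least 200 bases free of annotated exons. TCF and LEF factors carry Wnt signals to DNA, and capitals mark their core letters, CTTTGA, searched on both strands in the 250 bases before each start; the printed stretch, chr10:60106007-60106218 on the plus strand, ends where the first GENCODE exon begins.
Spock2: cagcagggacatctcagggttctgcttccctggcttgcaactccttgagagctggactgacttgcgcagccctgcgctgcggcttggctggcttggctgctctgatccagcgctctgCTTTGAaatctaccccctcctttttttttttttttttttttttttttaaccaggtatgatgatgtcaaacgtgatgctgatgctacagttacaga
The match begins 133 bases before the RefSeq start, and the window of Slc38a5 held no match. Such letters stood in 13.8% of 32851 windows of this length, and in 6 of the 21 windows found for 14 of the 18 barrier genes. A match of this kind is a description of the letters and not of binding.

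The rest of the barrier list did not pass the test, and most of it was lower in both mutants. Of the 18 genes, 14 had enough UMIs to be tested, 4 passed and fell, and 0 passed and rose. Lower in both mutants than in both controls were 11 of the 14, beside 19.4% of all genes. The median log2 change of the 14 was -2.05, beside 0.01 over all genes tested. Foxf2, a forkhead factor needed for brain vessel and pericyte development, had 24 and 17 UMIs in the controls against 0 and 1 (log2 -5.40 ± 0.80, n = 2 against 2, adjusted p = 0.058). Mfsd2a, the lipid transporter that holds back transcytosis in brain vessels, had 33 and 4 UMIs against 1 and 0 and was too low to test. Slco1c1, a thyroid hormone transporter, had a log2 change of -3.55 ± 0.73, Slc7a1, a cationic amino acid transporter, -1.94 ± 0.38, and Itm2a, a membrane protein, -1.28 ± 0.31, with adjusted p of 0.229, 0.2 and 0.288.

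The glucose transporter Slc2a1 was at 182 and 222 CPM in controls against 98.5 and 142 in mutants, with an adjusted p of 0.509. Lsr, of tricellular junctions, had a log2 change of -2.15 ± 0.64, and the efflux pump Abcb1a one of -0.83 ± 0.44. The other 3 tested genes of the list overlapped between the groups. Abcg2, an efflux pump, was at 239, 210, 237 and 240 CPM, and Bsg, a chaperone of lactate transporters, at 389, 369, 353 and 392, in the order control 1, control 2, mutant 1 and mutant 2. Lef1, a Wnt effector, had a log2 change of 0.65 ± 0.50.

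The cells behind the lower genes were then counted. For this, 6 genes of brain vessels (Mfsd2a, Slc38a5, Slco1c1, Spock2, Foxq1 and Foxf2) were taken after their values had been seen, so what follows is a description with no test. At least 2 of the 6 were detected in 5 of 70 endothelial cells of control 1 (7.14%, exact 95% interval 2.36 to 15.9) and in 4 of 32 of control 2 (12.5%, 3.51 to 29.0). They were detected together in 0 of 40 cells of mutant 1, where 3 counts of the total would allow up to 7.50%, and in 1 of 133 of mutant 2 (0.752%, 0.0190 to 4.12). The controls thus held 9 such cells of 102 and the mutants 1 of 173, and each control interval overlaps each mutant interval.

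Most of these cells carried nearly all of the 6 genes. Of the 9 control cells, 6 had at least 5 of the 6 genes, and 3 had all 6. They held 98.2% of control Slc38a5 UMIs, 98.9% of Spock2, 100% of Foxq1 and, among genes not used to pick them, 78.5% of Slc7a5, 82.4% of the iron exporter Slc40a1 and 67.6% of the cadherin Cdh2. Their level of Cldn5 was 2964 and 1826 CPM in the 2 controls, against 509 and 447 in the control endothelial cells that were neither brain-type nor lymphatic. Slc2a1 was at 1102 and 717 CPM against 113 and 154, and Plvap was at 97.5 and 87.4 against 331 and 283. None of the 9 had a high doublet score, and Col1a1 had no UMI in them.

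The single mutant cell with at least 2 of the 6 genes was different in level. It came from mutant 2, was among the deepest of that library with 53649 UMIs, and had 4 of the 6 genes, each at 1 UMI. Its Plvap stood at 429 CPM, Cldn5 at 541 and Slc7a5 at 37.3, close to the other endothelial cells of its library at 361, 496 and 21.9. Slc2a1 was at 112 CPM in it against 149 in those cells. Itm2a, also of the barrier list, was higher in it, at 708 CPM against 159, with 1706 and 1748 in the brain-type cells of the controls.

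The count was also taken over deeper cells alone. Among endothelial cells with at least 5000 UMIs, which includes every brain-type cell, the count was 5 of 63 and 4 of 26 in controls against 0 of 34 and 1 of 69 in mutants. Of 7 forebrain neuron genes, Emx1, Neurod2, Neurod6 and Eomes were at 0 in the endothelial cells of all 4 libraries, and Tbr1, Gad2 and Dlx2 had no more than 1 UMI in any library. The 7 genes summed to 0.790 and 1.78 CPM in the endothelial cells of controls against 1.04 and 0.745 in those of mutants, a single UMI each. In all other cells they summed to 8.57 and 6.72 CPM in controls against 8.28 and 5.48 in mutants, so the groups overlapped. How much brain tissue each dissection held was not tested further.

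**Figure D3:**
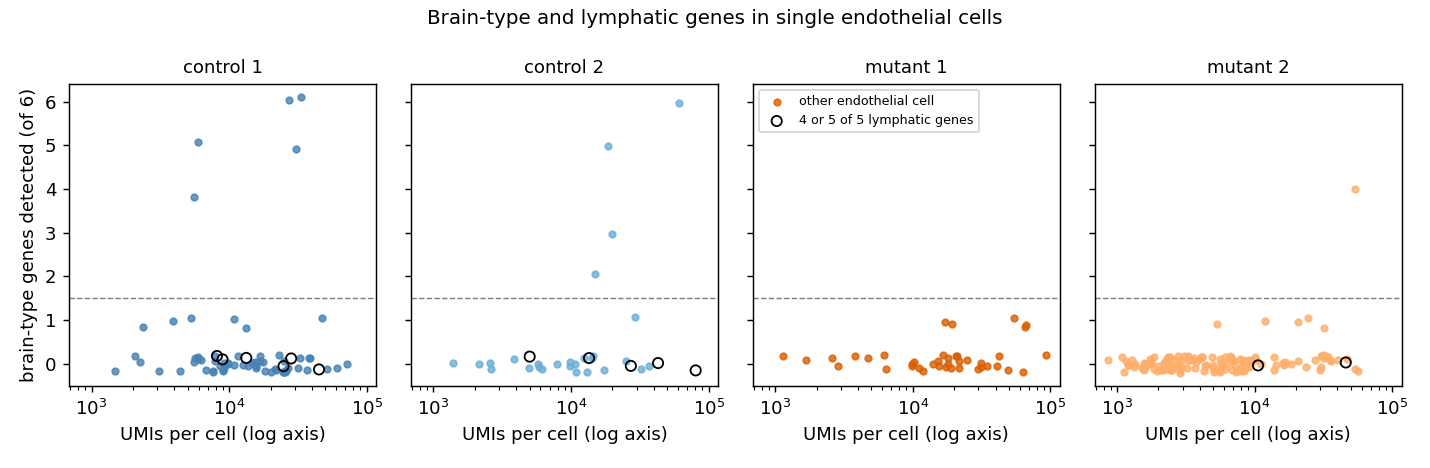
Number of 6 brain-type genes detected (vertical axis, shifted slightly for legibility) against UMIs per cell (horizontal log axis) in every endothelial cell, 1 panel per library. Points above the dashed line have 2 or more genes, 5 and 4 cells in controls against 0 and 1 in mutants, and open circles are cells with 4 or 5 of 5 lymphatic genes, 6, 5, 0 and 2.

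Without the brain-type and lymphatic cells, 0 of 8999 genes passed in edgeR, with 320 at an unadjusted p under 0.05, where the share of cells left out itself differed between groups. Slc38a5, Spock2 and Foxq1 then had too few UMIs to be tested, which follows from how the cells were picked. Slc7a5 was at 37.7 and 21.5 CPM in the remaining control cells and 20.7 and 21.9 in the mutants, a log2 change of -0.59 ± 0.37 in place of -2.52. Of genes outside the barrier list, Epha3 was at 1.93 ± 0.33 in place of 2.31, Hpse2 at 5.74 in place of 5.78, Eif3l at 1.13 in place of 1.03 and Gask1b at 0.77 in place of 1.21, each with an adjusted p of 0.999. The median of the 8 barrier genes still tested was 0.05, whereas the -2.05 above covered 14 genes, so the 2 medians are not of the same genes. Slc38a5, Foxq1, Foxf2, Spock2 and Slco1c1, which had been used to pick the cells, were among those no longer tested.

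Lymphatic genes showed a like distribution over cells. Of the list of 7, 6 could be tested and 0 passed. All 6 tested genes, with a median log2 change of -1.97, were lower in both mutants than in both controls, beside 19.4% of all genes. Prox1, the factor that specifies lymphatic fate, was at 48.2 and 162 CPM in controls against 21.8 and 23.8 in mutants (log2 -2.06 ± 0.49, n = 2 against 2, adjusted p = 0.286). Reln, a secreted glycoprotein made by lymphatic cells, had a log2 change of -2.64 ± 0.60 and Mmrn1 one of -1.89 ± 0.44. Flt4, the receptor for VEGF-C, was at 107 and 124 CPM against 58.0 and 67.8.

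Ccl21a had 547 and 654 UMIs in the controls, none in mutant 1 and 198 in mutant 2, where 1 cell held 152. Its near-identical copies in the mouse genome share reads, so the count belongs to the group of copies. At least 4 of the 5 genes Prox1, Reln, Mmrn1, Ccl21a and Pdpn, a list and limit set after the values were seen, were detected in 6 of 70 and 5 of 32 control cells and in 0 of 40 and 2 of 133 mutant cells. These are shares of 8.57%, 15.6%, 0% and 1.50%, with 3 counts allowing up to 7.50% in mutant 1. All 6 cells of control 1 and 1 of the 2 cells of mutant 2 had a high doublet score, and none of the 5 cells of control 2 did. Their Emcn was at 7.78 and 17.7 CPM in the controls, against 703 and 880 in the remaining cells. Without the brain-type and lymphatic cells Prox1 had a log2 change of 0.12.

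A broader count over all cells was also taken for each type. At least 3 of the 18 barrier genes were detected in 81.4%, 75.0%, 87.5% and 59.4% of endothelial cells in control 1, control 2, mutant 1 and mutant 2, a difference of -4.76 points (exact permutation p = 1), so the groups overlapped. With every cell thinned to 1000 UMIs the shares were 14.3%, 9.38%, 0% and 6.82%, with both controls above both mutants (exact permutation p = 0.33, the smallest possible). At least 3 of the 7 lymphatic genes were detected in 22.9%, 25.0%, 22.5% and 9.02% (exact permutation p = 0.33), and after thinning in 2.86%, 3.12%, 0% and 0%. Both controls were above both mutants in each, but after thinning these were 2, 1, 0 and 0 cells. In cells with at least 2000 UMIs the lymphatic shares overlapped, at 23.2%, 25.8%, 23.7% and 10.8%. They also overlapped with 2 genes as the minimum, at 48.6%, 43.8%, 52.5% and 19.5%.

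The gene that rose stands apart from the vascular programme. Epha3 (ENSMUSG00000052504, chromosome 16, 63543534 to 63864175, minus strand) had 20 UMIs in 6 cells of control 1, 10 in 2 cells of control 2, 92 in 6 cells of mutant 1 and 92 in 19 cells of mutant 2. The levels were 15.8 and 17.8 CPM in controls against 95.4 and 68.5 in mutants (log2 2.31 ± 0.30, n = 2 against 2, adjusted p = 0.0235). It was far higher in the other cells of the nose, at 173, 247, 341 and 231 CPM. Within endothelial cells, 98.9% and 95.7% of the mutant UMIs lay in cells with 5 or more of the 10 mesenchyme markers, as did 90.0% in both controls. Such cells numbered 10 of 70, 5 of 32, 7 of 40 and 42 of 133. Without cells of high doublet score the log2 change of Epha3 was 2.19 with a wider error (SE 1.02, adjusted p = 0.998), and without the cells rich in mesenchyme markers it was too low to test.

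None of the 12 genes next in order of p passed the threshold. Lower in both mutants were Foxf2, Slc40a1 (log2 -2.63 ± 0.39), Lrp8, a reelin and apolipoprotein E receptor (-2.72 ± 0.43), the non-coding gene Gm10785, Cobll1 and Cdh2. Higher in both were Cacna2d3, a calcium channel subunit, Lgals7, a galectin of stratified epithelium, Cntn4, Hpse2, Gask1b and Eif3l, with adjusted p between 0.058 and 0.182 over the 12. Hpse2, related to heparanase, had 3 and 1 UMIs in the controls against 216 and 44, of which 99.5% and 95.5% were in cells rich in mesenchyme markers, and other cells of the nose had 297 to 499 CPM. Of the Lgals7 UMIs, 100% of 12 in mutant 1 but 19.0% of 84 in mutant 2 were in such cells. Gask1b had 25.2% and 28.7% of its mutant UMIs in such cells, and levels of 43.5 and 53.3 CPM in controls against 111 and 107 in mutants. Other cells had 2.58 to 7.97 CPM of Gask1b.

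Eif3l, a translation initiation subunit, was at 93.2 and 113.6 CPM in controls against 199 and 214 in mutants, and in all other cells at 93.1 and 88.5 against 183 and 189. It lies beside Sox10 on chromosome 15, as do Polr2f (log2 0.79 ± 0.17) and Micall1 (0.86 ± 0.35), both higher in both mutants. Of 11 genes around Sox10, 6 were tested and 0 passed. In both mutants 3 were higher and 1 lower, beside 17.1% and 19.4% of all genes.

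The targeted genes were then examined in endothelial cells, which the Cre driver is not known to mark. Yap1 was at 46.6 and 58.6 CPM in controls against 35.2 and 37.2 in mutants (log2 -0.49 ± 0.26, n = 2 against 2, adjusted p = 0.851). Wwtr1, which encodes Taz, was at 224 and 314 against 246 and 234 (-0.13 ± 0.20, adjusted p = 0.972). Both are read at the 3′ end, and whether these reads lie in the floxed exons was not tested. Sox10 itself had 1 UMI in control 1, 1 in mutant 2 and none in the others. Tead1 and Tead2, DNA-binding partners of both coactivators, overlapped between the groups, Tead4 was low and Tead3 had 5 UMIs, all in mutants.

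Among 22 YAP and TAZ target genes, 14 were tested and 0 passed. Their median log2 change was 0.09, with 3 lower and 4 higher in both mutants, beside 19.4% and 17.1% of all genes. Ccn1, a matricellular protein, was at 121 and 95.9 CPM in controls against 174 and 148 in mutants (log2 0.56 ± 0.21), whereas Ccn2 overlapped, at 34.0 and 44.4 against 67.4 and 23.8. Crim1 was at 121 and 115 against 160 and 162. The list's lowest member was Foxf2, described above with the barrier genes. Of 14 Hippo pathway genes 13 were tested and 0 passed, with a median of -0.09.

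Genes of vessel identity gave no calls. Of 21 further endothelial genes all were tested, 0 passed, and the median log2 change was 0.03. In both mutants 3 were lower and 4 higher, beside 19.4% and 17.1% of all genes. Tek, the angiopoietin receptor, was at 170, 169, 200 and 171 CPM, and the transcription factor Erg at 73.5, 107, 93.3 and 84.2. Robo4, a guidance receptor that steadies vessels, was at 49.8 and 58.6 CPM in controls against 90.2 and 85.7 in mutants (log2 0.74 ± 0.22, adjusted p = 0.486). Plvap was at 281 and 163 against 334 and 349 (0.61 ± 0.24, adjusted p = 0.724), and at 0.18 without the brain-type and lymphatic cells.

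Arterial and venous genes gave 0 calls. Of 10 tested arterial genes, 4 were higher in both mutants and 1 lower, beside 17.1% and 19.4% of all genes, and their median log2 change of 0.44 was 0.05 without the brain-type and lymphatic cells. Gja4, an arterial connexin, was at 152 and 56.8 CPM in controls against 187 and 155 in mutants, Dll4, a Notch ligand, at 39.5 and 23.1 against 54.9 and 43.9, and the chemokine receptor Cxcr4 at 12.6 and 8.88 against 44.6 and 15.6. Of 5 tested venous genes, 2 were lower in both mutants and 0 higher, beside 19.4% and 17.1% of all genes. Their median log2 change was -0.28. Nr2f2, the factor of venous fate, was at 174 and 314 against 137 and 165 (log2 -0.64 ± 0.26) and Nrp2, a co-receptor of VEGF-C, at 356 and 636 against 249 and 274 (-0.89 ± 0.25). Both are also lymphatic genes, and Nrp2 was at -0.52 and Nr2f2 at -0.74 without the brain-type and lymphatic cells. Neither passed in either fit.

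Notch, VEGF and BMP genes gave no calls among 8, 9 and 9 tested. Hes1, a transcriptional repressor induced by Notch, was at 205 and 231 CPM in controls against 107 and 124 in mutants (log2 -0.89 ± 0.19, n = 2 against 2, adjusted p = 0.229). Without the brain-type and lymphatic cells its change was -0.81. The receptors Notch1 and Notch4 overlapped between the groups, and Dll4 was higher in both mutants. In the VEGF list, Flt1 overlapped and Tek was higher by less than its standard error. Among BMP and TGF-beta genes, Smad7, a feedback inhibitor, was at 52.9 and 44.4 against 82.9 and 64.8 CPM (0.58 ± 0.24), and Id1, Id3 and Bmpr2 overlapped.

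Of 12 genes of vascular Wnt signalling, 10 were tested and 0 passed. In both mutants 4 were lower and 1 higher, beside 19.4% and 17.1% of all genes. The receptor Fzd4 was at 55.3 and 44.4 CPM in controls against 53.9 and 58.8 in mutants, and Lrp5, Lrp6 and Tspan12 also overlapped. Apcdd1, a Wnt inhibitor that brain vessels make in response to Wnt, was at 63.2 and 121 against 34.2 and 14.9 (log2 -1.87 ± 0.41, adjusted p = 0.282). The 9 brain-type control cells held 82.4% of its control UMIs, and its change was 0.18 without them and the lymphatic cells. Adgra2, the co-receptor for neural Wnt ligands, was at 44.2 and 74.6 against 37.3 and 32.8, and Axin2 and Nkd1, Wnt feedback genes, had log2 changes of -0.82 ± 0.65 and -0.98 ± 0.40.

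Transport and fenestration genes gave 0 calls among 10, with 3 higher and 1 lower in both mutants, beside 17.1% and 19.4% of all genes. Cav1, the coat protein of caveolae, was at 407 and 250 CPM in controls against 625 and 609 in mutants (log2 0.91 ± 0.23, adjusted p = 0.291), and 0.57 without the brain-type and lymphatic cells. The transferrin receptor Tfrc was at 26.9 and 16.0 against 7.26 and 12.7. Basement membrane genes stayed close, with a median of 0.04 over 11 tested and 0 calls. Col4a1 was at 1244, 935, 1352 and 1060 CPM, and Sparc, a collagen chaperone, at 1870 and 1093 against 2147 and 2147.

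Of the tip and angiogenic list, all 10 genes were tested and 0 passed. Esm1, a proteoglycan of sprouting tip cells, was at 8.69 and 8.88 CPM in controls against 57.0 and 23.1 in mutants (log2 2.16 ± 0.51, adjusted p = 0.286), while Apln and Angpt2 overlapped. Junction genes (6 tested), leukocyte adhesion genes (3), flow response genes (4) and secreted signals (8) gave 0 calls, with medians of -0.11, -0.04, 0.23 and -0.04. Klf2, induced by flow, was at 503 and 515 against 406 and 664, and Edn1, a vasoconstrictor, at 21.3 and 49.7 against 16.6 and 8.19.

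Cell cycle genes overlapped between the groups. At least 3 of 8 were detected in 51.4% and 34.4% of endothelial cells in controls against 50.0% and 60.9% in mutants, a difference of 12.5 points (exact permutation p = 0.67). Thinned to 1000 UMIs, the shares were 15.7%, 3.12%, 2.50% and 18.9%. Mki67 was at 83.0, 74.6, 74.6 and 106 CPM. Of 16 genes that dissociation can induce, all were tested and 0 passed, with Fos at 490, 477, 351 and 506.

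**Figure D4:**
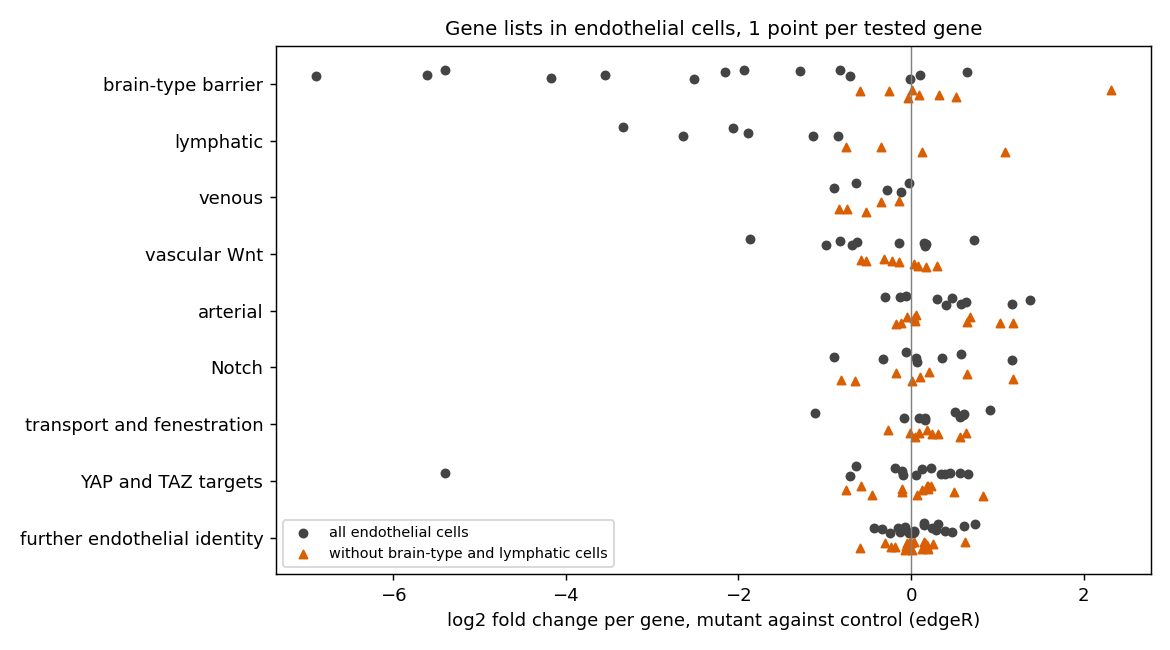
Log2 fold change of each tested gene, mutant against control, by gene list, over all endothelial cells (grey circles) and without the brain-type and lymphatic cells (orange triangles). The barrier and lymphatic medians are -2.05 and -1.97 over 14 and 6 genes in the first fit. In the second they are 0.05 and -0.11 over the 8 and 4 genes with enough UMIs to be tested, so the sets differ. The medians of the other 7 lists plotted range from -0.38 to 0.44 in the first fit and from -0.52 to 0.18 in the second.

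A second fit asked whether the change in endothelial cells differed from that in all other cells of the same libraries. Of 16539 genes, 122 passed an adjusted p of 0.05 for that difference, or 0.738%, with 81 more positive and 41 more negative in endothelial cells, and 4 of the 5 genes above were among them. Slc38a5 was not, at an adjusted p of 0.592. In 33 of the 122 genes, 1 library held at least 80% of the endothelial UMIs, and this was mutant 2 in 18 and mutant 1 in 10.

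The lowest p belonged to Slc7a5, whose change was lower in endothelial cells by 2.70 ± 0.31 on the log2 scale, written as -2.70 (n = 2 against 2, adjusted p = 1.34e-07). Other cells had 17.7 and 13.4 CPM of Slc7a5 in controls against 18.0 and 19.2 in mutants, so the lower level was not seen there. Spock2 differed by -4.60 ± 0.59 and Apcdd1 by -2.25 ± 0.28, and other cells had more Apcdd1 in mutants, at 107 and 97.6 against 62.1 and 91.0. Ccl21a differed by -4.01 ± 0.54 and Gask1b by 2.32 ± 0.33.

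The other 5 of the 10 leading genes were higher in other cells of the control noses than in their endothelial cells. Col1a2 differed by 1.92 ± 0.22 and Col1a1 by 2.28 ± 0.32, and mutant 2 held 64.4% and 79.9% of their endothelial UMIs. Without mutant 2 the differences were 1.33 and 1.01. Col2a1 differed by 6.30 ± 0.79, but its endothelial UMIs numbered 2 and 0 in controls and 2 and 286 in mutants, and without that library its adjusted p was 1. Krt15, a keratin of basal epithelium, had no UMI in controls against 9 and 28 in mutants, and without control 1 its adjusted p was 0.0624. Hpse2 differed by 4.99 ± 0.58.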

How the data were processed

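The authors deposited raw UMI counts per gene and cell barcode. Cell Ranger 8.0.1 made them per the file headers, whereas the submitters' processing notes name Cell Ranger 4, Seurat 4.3.0 and mm10. Members, gene lists and tests were chosen with earlier results of these data known. Kept were 13739 of 15863 barcodes, those with 500 genes or more and a mitochondrial share of no more than 10%. The libraries held 20170229 to 35887490 UMIs. Libraries shared 4 to 8 barcodes pairwise and no endothelial one. Doublets were not removed from the main sets. Scrublet's automatic limit marked 0 to 3 cells and had not worked, so in an alternative the highest scores were taken out at 0.8% per 1000 cells. This marked 24 endothelial cells.

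UMIs were summed over the endothelial cells of each library (563360 to 1342608 UMIs) and fitted in R 4.3.3 by edgeR 4.0.16, after filterByExpr and TMM scaling, with its quasi-likelihood test. P-values were adjusted over all genes tested (Benjamini-Hochberg) with a threshold of 0.05. The second fit added the sums of all other cells, with the library as block. SE is the log2 change over the root of the F statistic. CPM is per 1000000 UMIs of the endothelial cells, without TMM. The 2 libraries of a group were fitted without the replicate number, since the labels tie it to no shared litter or day. Deviations from the group means correlated at 0.0632 between same-numbered libraries, a value that 2 libraries per group make equal for both pairs. Gene positions are GENCODE M21 (GRCm38), matched for 32158 of 32285 features. Named genes were all that passed, the 12 next in p, the rule genes, Yap1, Wwtr1, Sox10 and the Tead genes, the leading genes against other cells, the 10 leading genes of the second fit, and from each list those of highest level, with those of the barrier list. From each of the barrier and forebrain lists 1 gene is not reported here; the forebrain list is given without it. Hes1, Esm1, Robo4, Cxcr4, Edn1, Hbb-y and others of the lists were named after their values were seen. On data drawn with known changes, 196 of 200 genes changed 4-fold were found among 9362 in the main fit and 153 of 200 among 16443 in the second. False calls numbered 9 and 6. The draws gave every gene the same dispersion and changed only genes of higher count, so they do not cover genes whose UMIs lie in few cells. Alternatives were other size factors, DESeq2 1.42.0, no count filter, a replicate block, deeper or thinned cells, stricter markers, cells without high doublet scores or mesenchyme genes, no haemoglobin or sex-linked genes, and each library left out.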

Additional observations from a re-analysis of the deposited data

Results flagged for a closer look

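The following 10 genes had the lowest p among the 122 whose change between mutant and control libraries differed between endothelial cells and all other cells, by an interaction term in edgeR. The value is the endothelial change minus that of the other cells, on the log2 scale. It was below 0 for Slc7a5 (-2.70), Spock2 (-4.60), Apcdd1 (-2.25) and Ccl21a (-4.01), which were lower in the endothelial cells of both mutants. It was above 0 for Gask1b (2.32), Hpse2 (4.99), Col1a2 (1.92), Col1a1 (2.28), Col2a1 (6.30) and Krt15 (11.19). The value of Krt15 rests on no UMI in the control endothelial cells and is no measure of size. For all 10 genes the 2 mutant libraries lay beyond both controls on the difference between endothelial and other cells, computed on log2 CPM with 10 added. The same held for 100 of the 122, and the share over all 16539 genes is not given here. As these genes were chosen by their p in the same libraries, both counts are description and add no support. When any 1 library was left out, the adjusted p stayed under 0.05 for 8 of the 10, the exceptions being Col2a1 without mutant 2 (1) and Krt15 without control 1 (0.0624).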

How the results depend on the processing

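The 5 genes past the threshold were called in every fit that left out 1 library, where 29 to 199 genes passed, and in those with other size factors (5 genes), cells of at least 2000 UMIs (7), no haemoglobin or sex-linked genes (7), 4 markers (9), 6 markers (8), no count filter (242), a replicate block (144) and the DESeq2 Wald test (18 of 7421 genes with an adjusted p). Same-numbered libraries share only a number. Without high doublet scores 8 genes passed and without cells rich in mesenchyme markers 11, with 4 of the 5 among them both times. Thinning to 1000 UMIs left 1003 genes and 1 call, none of the 5. Without brain-type and lymphatic cells, added after seeing the data like the 6-marker minimum, there were 0. The leave-one-out log2 changes were -8.93 to -6.25 for Slc38a5, -8.47 to -4.89 for Foxq1, -4.95 to -3.53 for Spock2, -2.67 to -2.38 for Slc7a5 and 2.06 to 2.54 for Epha3.

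Calls of the second fit numbered 101 to 234 without 1 library, 195 without the count filter and 215 with 4 markers. With 1 library left out, the difference in the share of endothelial cells ranged from -0.17 to 1.66 points, negative only without mutant 2, and that of cells with 3 barrier genes from -18.8 to 9.29, positive only without mutant 2. The mean differences of the lymphatic and cycling shares kept their direction in every alternative, although the libraries of the groups overlapped in some. Cell number limits the shares: with 32 and 40 endothelial cells in control 2 and mutant 1, a count of 0 allows up to 9.38% and 7.50%.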

Other observations

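The arterial connexin gene Gja4 and the venous factor Nr2f2 were also counted per cell, in the order control 1, control 2, mutant 1 and mutant 2. Nr2f2 alone was detected in 36, 20, 17 and 58 endothelial cells and Gja4 alone in 8, 2, 3 and 13. Both were detected in 14, 3, 12 and 11 cells, and neither in 12, 7, 8 and 51, of which most in mutant 2 belong to a library of shallow cells. These counts depend on depth and were not tested between groups.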
